A study of Mus musculus with 6 samples.

Results

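Neurogenic progenitor and immature neuron genes of the vomeronasal organ were followed in mice without the transcription factor AP-2e. The vomeronasal organ (VNO) is the paired chemosensory organ of the nasal septum, and AP-2e is the product of Tfap2e. The genes were Sox2, Kit, Neurog1, Neurod1, Insm1 and Hes6 for progenitors and precursors, and Gap43, Dcx and Stmn2 for immature neurons. They were taken by gene symbol from the probe sets of the array, and all 9 were found among the 22180 genes measured. Each of the 9 had 1 probe set named for that gene alone, so no choice among such probe sets was needed for them. A brighter probe set assigned jointly to Neurod1 and Cerkl did not stand for Neurod1 under this rule, and its values are given with those of Neurod1.

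Total RNA of VNOs from AP-2e null mice and from wild-type mice, both at postnatal day 17, was hybridised to 1 Affymetrix whole-transcript array per sample, with 3 samples of each genotype. The labels call the samples biological replicates. They name neither the null allele's construction nor the strain nor the number of animals per sample, so p-values measure the spread between samples only. The series set the genotypes against each other directly to find genes that differ.

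Sensory neurons of the VNO are replaced throughout life. Basal and marginal stem cells give rise to dividing precursors that switch on proneural basic helix-loop-helix (bHLH) factors, first Neurog1 and then Neurod1, leave the cell cycle, and pass through an immature stage marked by growth cone and microtubule proteins before they make Omp and receptors. In the mouse VNO, AP-2e is made in neurons of the basal class, which use V2R receptors and the G protein subunit Gnao1, and is switched on after the precursor stage.

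Promoters of the genes are shown first because the series removes an AP-2 factor and because several of the genes code for, or respond to, bHLH factors. RefSeq promoter entries (GRCm38.p6) were found for 6 of the 9 genes, and Insm1, Gap43 and Stmn2 had none. The 250 bases before the annotated start were searched on both strands, in every annotated start of a gene, for the AP-2 motif GCCNNNGGC and for the general E-box CANNTG, the site form bound by bHLH factors. Both motifs read the same on either strand and the matches did not overlap. The AP-2 motif was present in 1 of the 6 genes, Kit, and in 13.7% of all 32851 windows of this length. The E-box was present in 2 of the 6, Hes6 and Neurod1, and in 66.2% of all windows. The counts are of genes and the shares are of windows, and the 6 genes had 9 windows, since some had more than 1 annotated start. The windows with a match are printed 5′ to 3′ with the matched letters in capitals, for Kit on the plus strand (chr5:75574737-75574986), for Hes6 on the minus strand (chr1:91414039-91414288) and for Neurod1 on the minus strand (chr2:79456637-79456886).
Kit: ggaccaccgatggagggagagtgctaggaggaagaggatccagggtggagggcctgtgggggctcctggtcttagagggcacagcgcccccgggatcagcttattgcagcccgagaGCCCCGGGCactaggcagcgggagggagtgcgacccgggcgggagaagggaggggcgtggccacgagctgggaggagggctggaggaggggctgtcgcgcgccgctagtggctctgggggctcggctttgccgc
Hes6: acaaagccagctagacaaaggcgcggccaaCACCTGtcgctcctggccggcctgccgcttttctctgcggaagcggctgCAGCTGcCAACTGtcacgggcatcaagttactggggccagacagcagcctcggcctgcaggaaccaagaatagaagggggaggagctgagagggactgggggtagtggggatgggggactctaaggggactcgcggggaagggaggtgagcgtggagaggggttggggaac
Neurod1: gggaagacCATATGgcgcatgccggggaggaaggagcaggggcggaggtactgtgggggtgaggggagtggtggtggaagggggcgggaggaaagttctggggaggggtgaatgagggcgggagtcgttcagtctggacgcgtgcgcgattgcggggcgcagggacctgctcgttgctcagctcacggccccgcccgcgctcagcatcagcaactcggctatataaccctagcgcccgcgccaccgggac
In the Kit window the AP-2 motif lay 134 to 126 bases before the start. In the Hes6 window the E-boxes began 220, 171 and 164 bases before the start, and in Neurod1 242 bases before it. A second annotated start of Hes6 also had an E-box, 150 bases before that start. These matches are letters in a window and were not tested as binding sites.

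The genotype and the tissue were checked on the arrays first. Tfap2e had a log2 signal of 5.97, 6.09 and 6.04 on AP-2e null arrays 1, 2 and 3, against 6.46, 6.76 and 6.92 on wild-type arrays 1, 2 and 3. Every AP-2e null array was below every wild-type array, with a difference of -0.68 (SE 0.13, adjusted p = 0.431 in limma), and the labels do not say whether the probes of Tfap2e fall in what was deleted. The VNO neuron genes Trpc2, Omp, Gnai2 and Gnao1 had means above the median of all probe sets, 4.997 to 5.079, in both genotypes.

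None of the 9 genes passed the test in either direction in AP-2e null VNOs. In limma's fit over all genes, 0 of the 9 had an adjusted p under 0.05, against 0.225% of all genes (50 of 22180, 2 higher and 48 lower). At an unadjusted p under 0.05 there were again 0 of the 9, against 4.4% of all genes, and Hes6 had the smallest unadjusted p, 0.217. Over the alternative settings in which a gene was tested, the plain one-way test included, 0 of the 9 passed and the smallest unadjusted p was 0.144, for Hes6. In the probe set standing for each gene, the values of the genotypes overlapped or touched for every one of the 9, while they did not overlap for 7.06% of all genes. The adjusted p of the 9 genes lay between 0.873 and 0.997. Their log2 differences between AP-2e null and wild-type means lay between -0.087 for Dcx and 0.16 for Insm1, with a median of 0.067, where the median of all genes was -0.00052. The median size of the difference, without its sign, was 0.082 for the 9 genes and 0.086 for all genes.

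The width of the intervals says how large a change these 6 arrays could have hidden. The 95% intervals of the differences, for each gene by itself, reached from -0.45 at the lowest (Dcx) to 0.59 at the highest (Kit). In fold terms the data were compatible with a Dcx signal up to 1.37-fold lower and a Kit signal up to 1.51-fold higher in AP-2e null VNOs. For 8 of the 9 genes the whole interval lay within 1.5-fold in either direction, as it did for 78.7% of all genes. Kit was the exception. Neurod1 was counted by its 1-gene probe set, which lay under the median of all probe sets on every array. The 95% interval of a probe set assigned jointly to Neurod1 and Cerkl reached from -0.067 to 1.01, past 1.5-fold. In tissue RNA, fewer cells of a type and less RNA per cell cannot be told apart, so opposite shifts of both would not show.

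**Figure D1:**
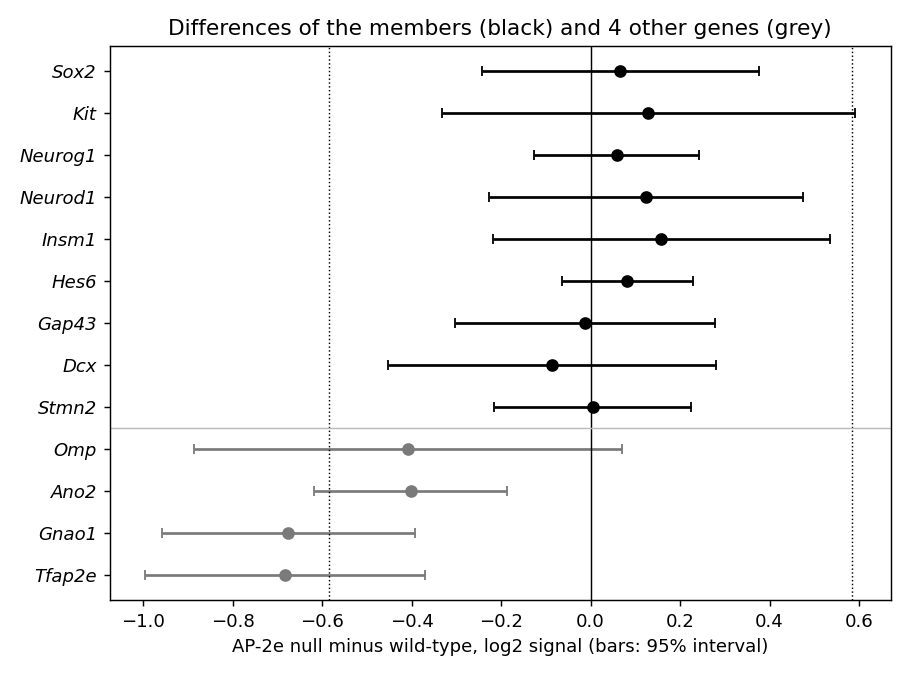
Difference of log2 signal, AP-2e null minus wild-type, for the 9 genes (black) and, in grey, for Omp, Ano2, Gnao1 and Tfap2e, with 95% intervals from limma and dotted lines at 1.5-fold. All 9 intervals cross 0, from -0.45 for Dcx to 0.59 for Kit.

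Sox2 and Kit stand at the start of the lineage. Sox2, an HMG-box factor of stem and progenitor cells that supporting cells also make, had a log2 signal of 10.50, 10.50 and 10.54 on AP-2e null arrays 1, 2 and 3, against 10.65, 10.50 and 10.19 on wild-type arrays 1, 2 and 3. The AP-2e null values lay inside the wild-type range, whose lowest value was wild-type replicate 3. The means were 10.51 ± 0.03 in AP-2e null and 10.44 ± 0.24 in wild-type VNOs (SD, n = 3 each), a difference of 0.067 (SE 0.12, 95% interval -0.24 to 0.38). Without wild-type replicate 3 the difference was -0.063.

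Kit, a receptor tyrosine kinase of neuronal progenitors, had a log2 signal of 7.31, 7.71 and 7.38 on AP-2e null arrays 1, 2 and 3, against 7.39, 7.61 and 7.01 on wild-type arrays 1, 2 and 3. The highest value was AP-2e null replicate 2 and the lowest wild-type replicate 3, and these 0.70 log2 units were the widest range of the 9 genes. The means were 7.47 ± 0.21 in AP-2e null and 7.34 ± 0.30 in wild-type VNOs (SD, n = 3 each), a difference of 0.13 (SE 0.19, 95% interval -0.33 to 0.59), and without wild-type replicate 3 it was -0.033. Kit is also made by mast cells and melanocytes. Of 9 mast cell markers 0 passed in either direction, beside 0.225% of all genes, and 6 had the higher and 3 the lower mean in AP-2e null VNOs. Cpa3, the mast cell carboxypeptidase, had 8.83, 8.36 and 8.35 on AP-2e null arrays against 7.94, 8.06 and 8.05 on wild-type arrays (difference 0.50, adjusted p = 0.873 in limma). Its values did not overlap between the genotypes, as was so for 7.06% of all genes. It was the 1 mast cell marker with an unadjusted p under 0.05 in limma, beside 4.4% of all genes. Of 6 melanocyte markers 0 passed in either direction. The mean log2 signal of the mast cell list was 4.62 to 5.09 on AP-2e null and 4.64 to 4.82 on wild-type arrays, that of the melanocyte list 4.08 to 4.13 and 4.11 to 4.27, and their part in the Kit signal was not tested.

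The genes whose array profile came nearest to that of Kit were Ehf, Gm3285 and Cd44. The measure was the root mean square difference over the 6 arrays after each gene's own mean was subtracted, which was 0.043, 0.045 and 0.050 log2 units. Kit was picked for this comparison after the values were seen, as the gene with the widest range. How near the closest genes lie to other profiles was not tested, so these distances do not mark a group.

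Neurog1 and Neurod1 are the proneural bHLH factors of the lineage. Neurog1, which commits precursors to the neuronal fate, had a log2 signal of 5.08, 5.17 and 5.24 on AP-2e null arrays 1, 2 and 3, against 5.01, 5.18 and 5.13 on wild-type arrays 1, 2 and 3. All 6 values lay within 0.23 log2 units, close to the median of all probe sets. The means were 5.16 ± 0.08 in AP-2e null and 5.10 ± 0.09 in wild-type VNOs (SD, n = 3 each), a difference of 0.058 (SE 0.074, 95% interval -0.13 to 0.24).

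Neurod1, which acts after Neurog1 as precursors differentiate, had a log2 signal of 4.31, 4.41 and 4.82 on AP-2e null arrays 1, 2 and 3, against 4.36, 4.36 and 4.44 on wild-type arrays 1, 2 and 3. AP-2e null replicate 3 stood above the other 5 arrays, and AP-2e null replicate 1 was the lowest. The means were 4.51 ± 0.27 in AP-2e null and 4.39 ± 0.05 in wild-type VNOs (SD, n = 3 each), a difference of 0.12 (SE 0.14, 95% interval -0.23 to 0.48). Without AP-2e null replicate 3 the difference was -0.029. Neurod1 lay under the median of all probe sets on every array. A further probe set, which the platform assigns jointly to Neurod1 and Cerkl, was fitted among all 41345 probe sets after its values were seen. Its log2 signal was 6.60, 6.75 and 6.87 on AP-2e null arrays 1, 2 and 3, against 6.39, 6.59 and 5.82 on wild-type arrays 1, 2 and 3, so every AP-2e null array lay above every wild-type array. Of all probe sets 7.37% did not overlap between the genotypes. The difference was 0.47 (SE 0.21, 95% interval -0.067 to 1.01, adjusted p = 0.902 in limma) and did not pass, and which of the genes it measured was not tested.

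Insm1 and Hes6 act around the last division. Insm1, a zinc finger factor that promotes neuron-producing divisions in the mouse olfactory epithelium, had a log2 signal of 7.02, 7.15 and 7.48 on AP-2e null arrays 1, 2 and 3, against 7.11, 6.86 and 7.21 on wild-type arrays 1, 2 and 3. The highest value was again AP-2e null replicate 3, and wild-type replicate 2 was the lowest. The means were 7.22 ± 0.24 in AP-2e null and 7.06 ± 0.18 in wild-type VNOs (SD, n = 3 each), a difference of 0.16 (SE 0.15, 95% interval -0.22 to 0.53), and without AP-2e null replicate 3 it was 0.027.

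Hes6, a bHLH factor that opposes Hes1 and favours neuronal differentiation, had a log2 signal of 6.68, 6.59 and 6.59 on AP-2e null arrays 1, 2 and 3, against 6.59, 6.55 and 6.47 on wild-type arrays 1, 2 and 3. It was the gene closest to a separation of the genotypes, since the highest wild-type value equalled the values of AP-2e null replicates 2 and 3. The means were 6.62 ± 0.05 in AP-2e null and 6.54 ± 0.06 in wild-type VNOs (SD, n = 3 each), a difference of 0.082 (SE 0.059, 95% interval -0.065 to 0.23, adjusted p = 0.873 in limma). Its range over the 6 arrays, 0.21 log2 units, was the narrowest of the 9 genes.

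Gap43, Dcx and Stmn2 mark neurons that have left the cell cycle and extend axons. Gap43, a growth cone protein, had a log2 signal of 8.18, 8.04 and 8.16 on AP-2e null arrays 1, 2 and 3, against 8.16, 7.92 and 8.33 on wild-type arrays 1, 2 and 3. Wild-type replicates 2 and 3 were the lowest and the highest of the 6 arrays, with every AP-2e null value between them. The means were 8.13 ± 0.08 in AP-2e null and 8.14 ± 0.21 in wild-type VNOs (SD, n = 3 each), a difference of -0.012 (SE 0.12, 95% interval -0.30 to 0.28).

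Dcx, a microtubule-associated protein of migrating and immature neurons, had a log2 signal of 7.73, 7.70 and 7.50 on AP-2e null arrays 1, 2 and 3, against 7.60, 7.57 and 8.03 on wild-type arrays 1, 2 and 3. Wild-type replicate 3 stood above the other 5 arrays. The means were 7.64 ± 0.12 in AP-2e null and 7.73 ± 0.26 in wild-type VNOs (SD, n = 3 each), a difference of -0.087 (SE 0.15, 95% interval -0.45 to 0.28), and without wild-type replicate 3 it was 0.063.

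Stmn2, a stathmin that regulates microtubules in growth cones, had a log2 signal of 10.75, 10.63 and 10.77 on AP-2e null arrays 1, 2 and 3, against 10.77, 10.55 and 10.81 on wild-type arrays 1, 2 and 3. As for Gap43, wild-type replicates 2 and 3 were the lowest and the highest, and the AP-2e null arrays lay between them. The means were 10.71 ± 0.08 in AP-2e null and 10.71 ± 0.14 in wild-type VNOs (SD, n = 3 each), a difference of 0.0047 (SE 0.089, 95% interval -0.22 to 0.23). The other stathmin genes did not pass either, with differences of 0.17 for Stmn1, -0.25 for Stmn3 and -0.13 for Stmn4.

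**Figure D2:**
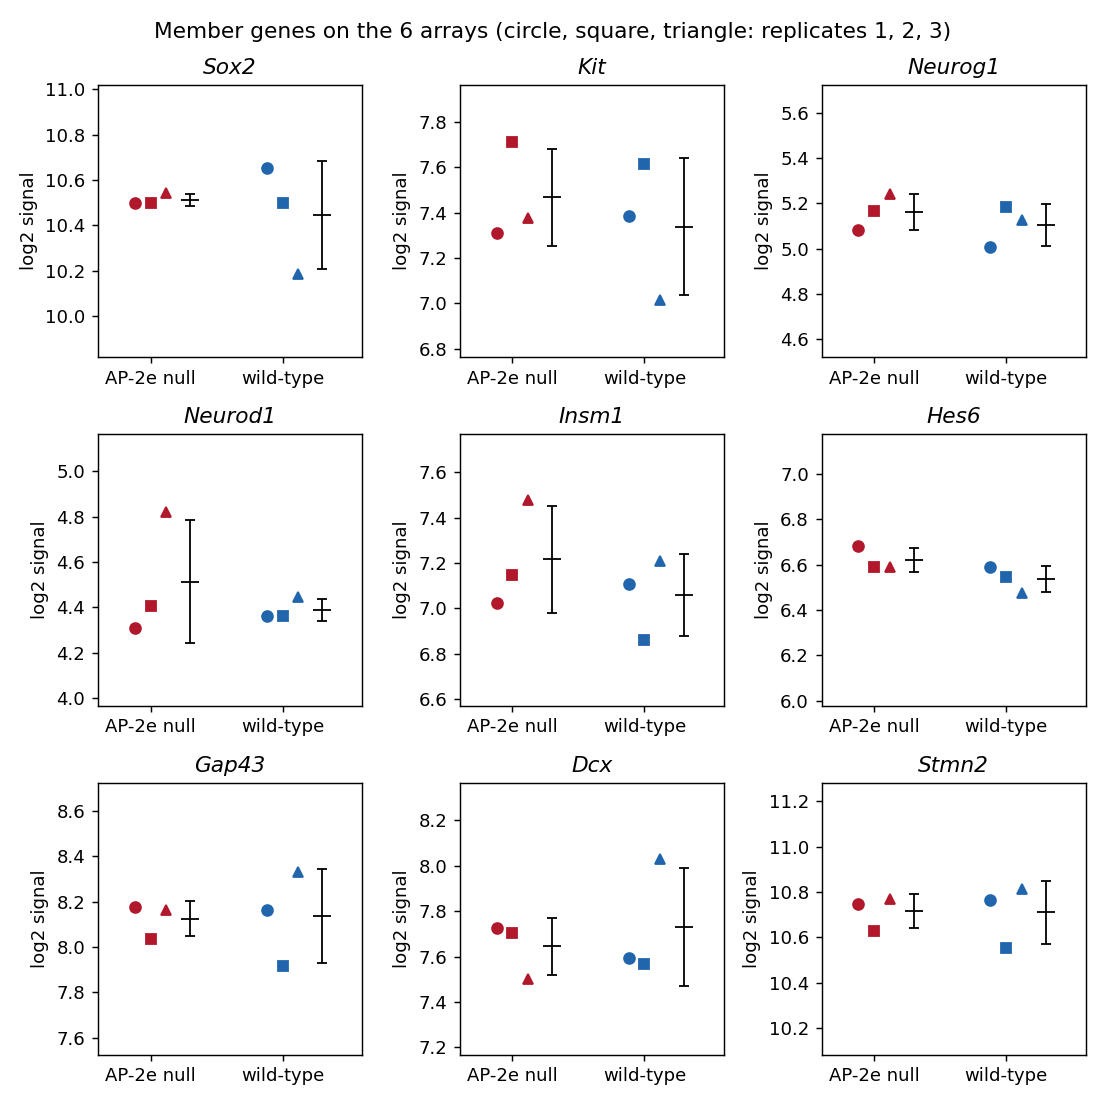
Log2 signal of each gene on the 6 arrays, AP-2e null in red and wild-type in blue, with the mean and SD in black beside each group and a span of the same size on every vertical axis. With the 1-gene probe set drawn for each gene, the groups overlap or touch in all 9 panels, and the widest range is that of Kit, 0.70 log2 units.

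The range over single arrays was 0.21 to 0.70 log2 units across the 9 genes. AP-2e null replicate 3 was the highest array for 3 genes, Neurog1, Neurod1 and Insm1. Wild-type replicate 3 was the highest for 3 others, Gap43, Dcx and Stmn2, and the lowest for Sox2, Kit and Hes6. Wild-type replicate 2 was the lowest for 3 genes, Insm1, Gap43 and Stmn2. On wild-type replicate 2 the mean of the 11 proliferation genes was also the lowest, 6.63, where it was 7.002 to 7.31 on AP-2e null arrays and 7.11 and 7.22 on the other wild-type arrays. Wild-type replicate 3 had the lowest mean correlation with the other arrays across genes (r = 0.981, against 0.985 to 0.988), and its part in these values was not tested beyond leaving it out.

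Of the 6 progenitor and precursor genes 6 had the higher mean in AP-2e null VNOs, with a median difference of 0.10, and of the 3 immature neuron genes 1 did, with a median of -0.012. The mean difference was above 0 for 49.4% of all genes. The mean log2 signal of the 6 progenitor genes was 6.82, 6.92 and 7.01 on AP-2e null arrays and 6.85, 6.84 and 6.74 on wild-type arrays, and these overlapped. Leaving out wild-type replicate 3 turned Sox2 and Kit, and leaving out AP-2e null replicate 3 turned Neurod1, while Neurog1, Insm1 and Hes6 kept their sign without any single array. That mean for the 3 immature neuron genes was 8.88, 8.79 and 8.81 on AP-2e null arrays and 8.84, 8.68 and 9.06 on wild-type arrays, with the wild-type values on both sides.

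**Figure D3:**
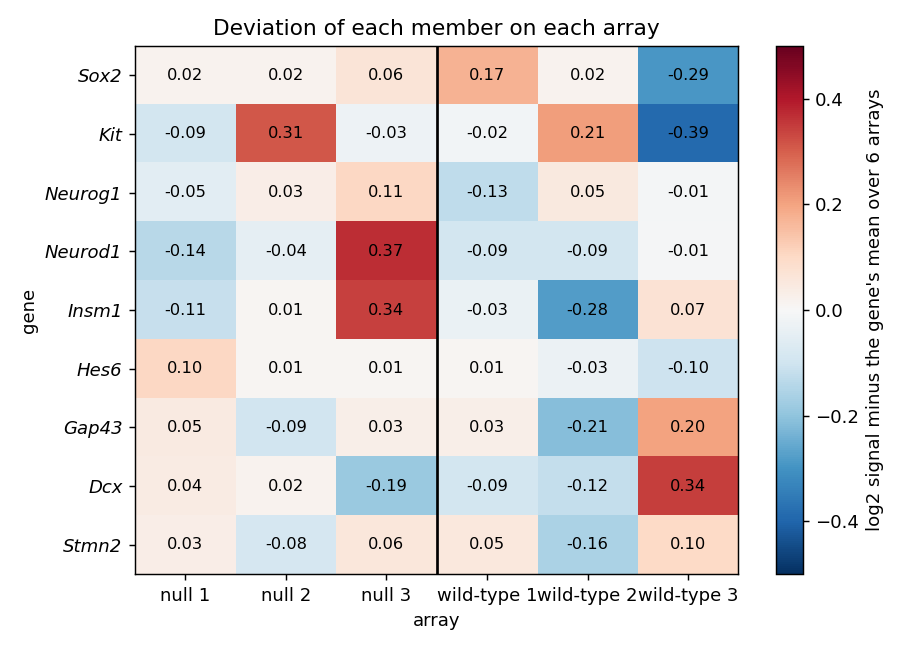
Log2 signal of each gene on each array minus that gene's mean over the 6 arrays, AP-2e null arrays left of the line and wild-type arrays right of it. The largest deviations stand on single arrays, such as wild-type replicate 3 for Kit at -0.39 and for Dcx at 0.34, and AP-2e null replicate 3 for Neurod1 at 0.37.

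Gap43 minus Omp, a balance of an immature and a mature marker, was higher in all 3 AP-2e null samples than in any wild-type sample. Omp, a protein of mature sensory neurons, had a log2 signal of 9.87, 9.46 and 9.79 on AP-2e null arrays 1, 2 and 3, against 9.93, 9.93 and 10.48 on wild-type arrays 1, 2 and 3. It was lower on every AP-2e null array, with a difference of -0.41 (SE 0.19) that did not pass over all genes (adjusted p = 0.873 in limma). Gap43 minus Omp on the log2 scale was -1.69, -1.42 and -1.63 on AP-2e null arrays, against -1.77, -2.01 and -2.15 on wild-type arrays. The groups did not overlap, as neither did those of Omp, while those of Gap43 did. Of all genes taken singly, 7.06% did not overlap, and how often a difference of 2 genes separates was not tested. The means were -1.58 ± 0.14 in AP-2e null and -1.98 ± 0.19 in wild-type VNOs (SD, n = 3 each), a difference of 0.40. Gap43 by itself differed by -0.012 and Omp by -0.41, so nearly all of this difference was that of Omp. A 2-sided exact permutation test gave p = 0.1, below which 3 samples a genotype cannot go. Of the 7 mature neuron genes measured 0 passed. An unadjusted p under 0.05 was found for 2 of them, beside 4.4% of all genes: Gnao1 at -0.68 and the chloride channel gene Ano2 at -0.40. The mean log2 signal of these 7 genes did not overlap, with 8.89 to 8.97 on AP-2e null and 9.06 to 9.25 on wild-type arrays. How often the mean of such a list separates was not tested. Of the 7 genes, 2 had the higher mean in AP-2e null VNOs and 5 the lower, with Ano1 at 0.056 and Cnga4 at -0.105. Gnai2, the subunit of the apical class, stood at 0.11, and Trpc2, the transduction channel of both classes, at -0.044.

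**Figure D4:**
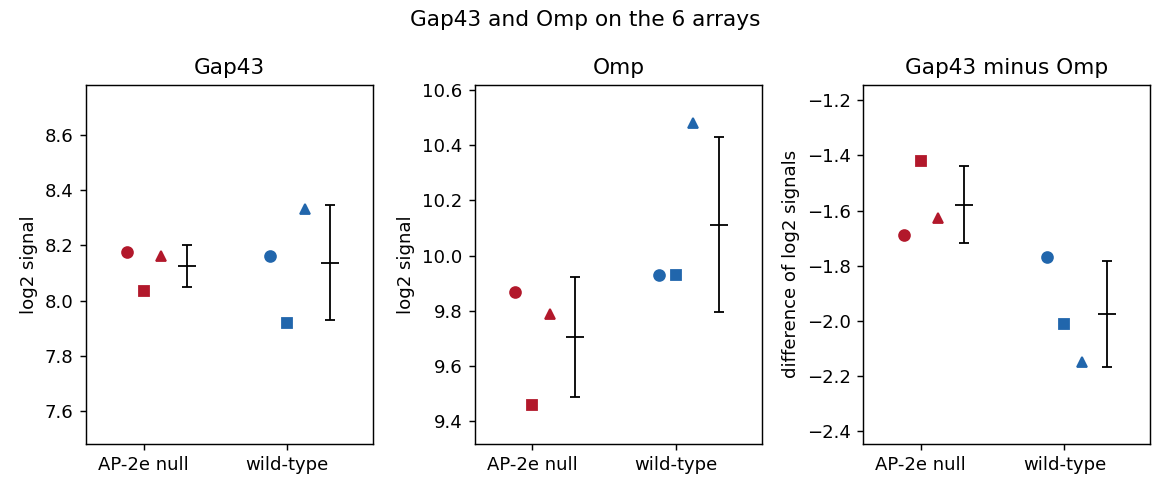
Log2 signal of Gap43 and Omp and their difference per array, AP-2e null in red and wild-type in blue, with mean and SD. Gap43 overlaps between the genotypes, Omp and the difference do not, and the difference averages -1.58 in AP-2e null and -1.98 in wild-type VNOs.

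Other genes of the same steps did not pass either. Of 8 further bHLH relatives measured 0 passed, with a median difference of -0.059. Neurod6 at -0.39, Neurod4 at -0.17, Neurog3 at -0.073 and Neurod2 at -0.070 had the smallest p, and all of these had means below the median of all probe sets. The bHLH genes Nhlh1 and Nhlh2, which mark differentiating neurons, stood at 0.037 and 0.11. Of 19 genes of the Notch pathway, which holds neighbouring cells back from the neuronal fate, 0 passed and 14 had the higher mean in AP-2e null VNOs (median 0.046), or 10 of 19 without wild-type replicate 2. The mean log2 signal of the list was 7.157 to 7.201 on AP-2e null and 7.109 to 7.156 on wild-type arrays. These did not overlap, but AP-2e null replicate 3, the lowest at 7.1570, was close to wild-type replicate 3, the highest at 7.1560. How often the means of such lists separate was not tested, and of single genes 7.06% did not overlap. An unadjusted p under 0.05 in limma was found for 1 of the 19, beside 4.4% of all genes. This was the Notch ligand Jag2, at 7.89 ± 0.05 in AP-2e null and 8.06 ± 0.06 in wild-type VNOs (SD, n = 3 each, difference -0.17, adjusted p = 0.873 in limma). It was followed by the ligand Jag1 at 0.15, the Notch glycosyltransferase Mfng at 0.25 and the Notch target Hes5 at 0.30.

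Of 20 further factors of neural and placodal progenitors and precursors 0 passed, with a median of 0.039. Those with the smallest p were the zinc finger factor Myt1 at -0.17, the paired box factor Pax6 at 0.25, Sox11 of postmitotic precursors at 0.18 and the histone methyltransferase Ezh2 at 0.13. Of 20 cytoskeleton and RNA-binding genes of young neurons, which include Gap43, Dcx and Stmn2, 0 passed, with 9 higher and 11 lower means and a median of -0.023. The microtubule proteins Map1b and Map2 differed by -0.17 and -0.27, the beta tubulin Tubb2b by -0.17 and the dihydropyrimidinase-like protein Crmp1 by 0.16. Of 7 genes around Kit signalling 0 passed (median 0.011). An unadjusted p under 0.05 in limma was found for 1 of the 7, the ubiquitin ligase Cbl at 0.29, beside 4.4% of all genes. Cbl was followed by the phosphatase Ptpn6 at 0.10, the adaptor Sh2b3 at 0.098 and the phosphatase Ptpn11 at -0.038. The ligand gene Kitl stood at -0.021.

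**Figure D5:**
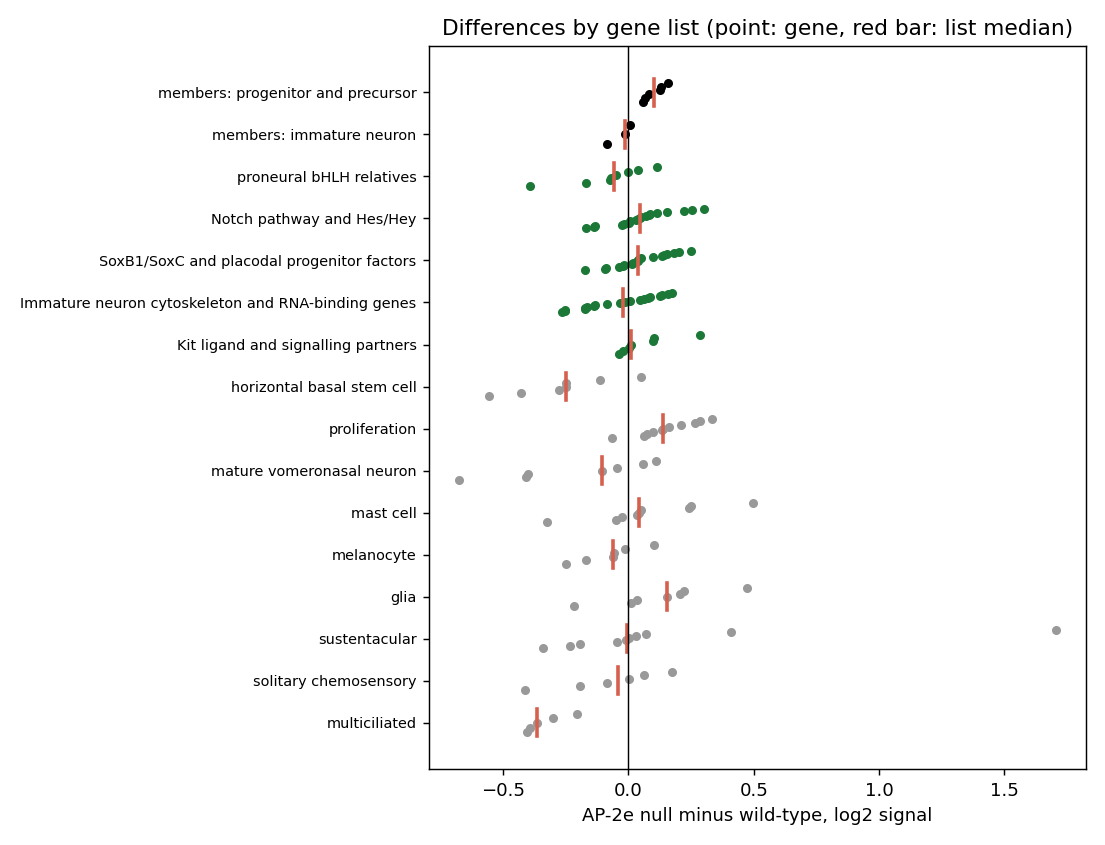
Difference of log2 signal, AP-2e null minus wild-type, for the genes of each list, with the 9 genes in black, related genes in green, cell markers in grey and list medians in red. The medians of the black and green lists lie between -0.059 and 0.10.

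Markers of the cells before and beside this lineage did not pass either, in any list measured. Of 7 horizontal basal cell markers 6 had the lower mean in AP-2e null VNOs (median -0.25), with the keratins Krt15 at -0.56 and Krt14 at -0.43. Without wild-type replicate 1, Krt15 stood at -0.26 and Krt14 at 0.097. Of 11 proliferation genes 10 had the higher mean (median 0.14), with Pcna at 0.062 and Mki67 at 0.27. Without wild-type replicate 2, 3 of the 11 had the higher mean (median -0.052), with Pcna at -0.052 and Mki67 at -0.057. Of 7 glial markers 6 had the higher mean (median 0.15), with Erbb3 at 0.012 and Fabp7 at 0.22, and Fabp7 stood at -0.27 without wild-type replicate 1. The count was 4 of 7 when AP-2e null replicate 2 was left out, and likewise for wild-type replicate 3. The 10 supporting cell markers had a median of -0.0047, with 5 higher and 5 lower means. Cbr2 stood at 0.0023 and Sec14l3 at -0.23, which was 0.25 without AP-2e null replicate 1. An unadjusted p under 0.05 in limma was found for 1 of the 10, the keratin Krt8 at -0.34, beside 4.4% of all genes. The mean log2 signal overlapped between the genotypes in each of these lists: it was 6.86 to 7.56 on AP-2e null and 7.15 to 7.77 on wild-type arrays for basal cells, 7.002 to 7.31 and 6.63 to 7.22 for proliferation, 6.73 to 6.91 and 6.49 to 6.87 for glia, and 7.89 to 8.80 and 7.87 to 8.85 for supporting cells. Their part in the signal of Sox2, which supporting and glial cells also make, was not tested. For 6 solitary chemosensory cell markers the median was -0.041, with 3 higher and 3 lower means. Dclk1 stood at 0.064 and Ascl3 at 0.17. Gnat3, the gustducin subunit, named after its values were seen, did not overlap between the genotypes at -0.41 (adjusted p = 0.873 in limma). The same held for 7.06% of all genes. The median was, for 5 multiciliated cell markers -0.37 (Tppp3 at -0.39, Rsph1 at -0.37), for 9 mast cell markers 0.043 (Cpa3 at 0.50, Tpsb2 at 0.033) and for 6 melanocyte markers -0.060 (Pmel at -0.17, Mlana at -0.057).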

How the data were processed

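RNA of VNOs from 3 AP-2e null and 3 wild-type samples was measured on 1 array each, from 100 ng of total RNA per the labels' protocols. The deposited values are log2 signals made by the authors with RMA (background correction, quantile normalization, probe summary) and the Transcriptome Analysis Console, per the submitters' processing notes, which give no versions here. Among 41345 probe sets, 23521 had 1 gene in the platform annotation, 1814 several and 16010 none. Entrez identifiers matched a RefSeq gene table (GRCm38.p6) for 23328, and 0 symbols changed. The probe set with the highest mean stood for each of 22180 genes, with no filter on dim genes.

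Genotypes came from the sample titles. All genes were fitted in R 4.3.3 with lmFit and eBayes of limma 3.58.1, 2-sided and without covariates. Passing means a p under 0.05 after Benjamini-Hochberg adjustment over all genes. Gap43 minus Omp was tested by exact permutation over 20 label arrangements. The fit was tested on simulated data. The number of arrays limits the precision. Alternatives were other moderation, averaging or separating probe sets, leaving out the dimmest 30% of genes, 3 other scalings, array weights, a plain one-way test, a block for the replicate number, and dropping each array. Dropping each array for the gene lists was added after seeing the data. Genes and lists were chosen with earlier results of these data known. Named were the 9 genes, Tfap2e, the stathmin genes, 4 genes with the smallest p per related list, the brightest 2 per marker list, and genes of like profile for any of the 9 spanning at least 1 log2 unit, which 0 did. Other genes were named after their values were seen. The erythroid markers had no probe set of 1 gene and were not analysed here. Plots used matplotlib 3.10.9 in Python 3.11.15.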

Additional observations from a re-analysis of the deposited data

How the results depend on the processing

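The count of 0 genes passing among the 9 held in all 16 alternatives, with a smallest adjusted p of 0.787. Neurod1 fell under the filter on dim genes, so that setting gave it no value. Of 143 values of single genes, 12 changed sign. With all arrays these were Stmn2 under median centring (-0.031) and array weights (-0.0071) and Sox2 under array weights (-0.015), and the cause was not tested. Median centring moved the median of all genes to -0.036. With 1 array left out, the differences lay between -0.063 and 0.17 for Sox2, -0.033 and 0.27 for Kit, -0.029 and 0.23 for Neurod1, -0.12 and 0.085 for Gap43, -0.17 and 0.063 for Dcx, and -0.074 and 0.055 for Stmn2, while Neurog1, Insm1 and Hes6 kept their sign. The number of genes passing over the whole table was 50. It was 4 when the one-way test was run without shared spread, and 17 to 32 with any 1 of the 6 arrays left out and fewer samples. Same-numbered samples correlated with r = 0.040, 0.11 and 0.019 in their deviations from group means, so the numbers were not taken as pairs. With the replicate block 22 genes passed, 0 of them among the 9. Gap43 minus Omp kept its sign under every alternative run for it, at 0.31 to 0.50 with 1 array left out, and the sign-flip test within the replicate block gave an exact p of 0.25, the smallest it allows.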

Other observations

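Of 10 supporting cell markers 6 had a wider range over the 6 arrays than Kit, the widest of the 9 genes at 0.70 log2 units. Cyp2g1, a cytochrome P450 of nasal supporting cells, had a log2 signal of 7.27, 9.70 and 10.01 on AP-2e null arrays 1, 2 and 3, against 4.33, 10.13 and 7.41 on wild-type arrays 1, 2 and 3, and is named here after its values were seen. The basal cell keratin Krt14 had 7.14, 8.66 and 7.60 on AP-2e null arrays, against 9.28, 8.15 and 7.25 on wild-type arrays. Sox2, by comparison, stayed within 0.46 log2 units on the 6 arrays.

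Some values recurred exactly between arrays. Sox2 and Hes6 had 4 distinct values on the 6 arrays, and Neurod1 and Gap43 had 5. Sox2 had the same value on AP-2e null replicates 1 and 2 and wild-type replicate 2, and Hes6 on AP-2e null replicates 2 and 3 and wild-type replicate 1.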
